A study of Xenopus laevis with 90 samples.

Results

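The genes described here are the zygotic genes of Xenopus laevis whose level at 7.5 hours post fertilisation (hpf) was not lower by more than a set limit in embryos in which trimethylation of lysine 4 on histone H3 (H3K4me3) had been targeted for depletion before zygotic genome activation. They are called resistant here as the name of that rule. They were found by a rule on expression alone, applied to the embryos of both frogs. A gene counted as zygotic when its mean log2(TPM + 1) in uninjected embryos rose by at least 1.5 from 5.5 to 7.5 hpf and its mean reached at least 5 TPM at 7.5 hpf. TPM is a level per transcript length in which each library sums to the same total. A zygotic gene counted as resistant when treated minus control at 7.5 hpf was above -0.2 with and without auxin in both frogs. Of 36504 genes named in both tables, 556 were zygotic by this rule and 49 of them were resistant. The remaining 507 zygotic genes are called the other zygotic genes. The rise in uninjected embryos from 5.5 to 7.5 hpf and the differences at 7.5 hpf are what the members were chosen by, so both are given as a description with no test.

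The study asked whether H3K4me3 present before genome activation is needed for later transcription, and measured total RNA depleted of ribosomal RNA in 90 libraries, each a pool of 3 whole embryos. Treated embryos were wild type and had been injected as fertilised eggs with mRNA for a mouse Kdm5b demethylase fragment (Kdm5bwt, 11 ng), for a histone H3.3 carrying methionine in place of lysine 4 (345 pg) and for the auxin receptor TIR1 (5 ng). In control embryos the injected mix held a Kdm5b fragment without enzyme activity (Kdm5bci, 4 ng), unmutated H3.3 (345 pg) and TIR1 (5 ng), so the arms also differed in the amount of injected mRNA. The paper states that the amounts were chosen to give matching levels of the overexpressed proteins before genome activation. Both injected proteins carried a degron, and auxin (IAA, 500 µM) was added to the +IAA embryos from the stage before genome activation onward. This was meant to limit the depletion to a window, while in the -IAA embryos it was meant to persist. The paper reports a decrease of H3K4me3 in treated embryos before genome activation and states that its interference cannot separate H3K4me2 from H3K4me3. The libraries used here measure RNA only, so whether the promoters of the members lost the mark was not examined. Uninjected wild type embryos without auxin (Wt-IAA) were the remaining group, and embryos of each of the 5 groups were collected at 5.5, 6.5 and 7.5 hpf from 2 frogs, with 3 pools per frog, group and time. Pools of a frog are siblings, so the p-values below, each from a limma fit of 1 frog, measure the spread between sibling pools, and the 2 frogs serve as the biological replicates. In whole embryos, fewer cells that express a gene and less RNA per cell cannot be told apart.

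Early amphibian embryos divide without transcribing most of their genome and run on RNA and protein laid down in the egg. At the mid-blastula transition the zygotic genome is switched on, and some genes, such as the nodal5 and nodal6 ligands, start before the main wave. H3K4me3 marks promoters of active genes and is written by MLL/SET1 family enzymes and removed by KDM5 family demethylases, and a lysine-to-methionine histone acts against methylation at that residue.

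The libraries carried vegt, a vegetally stored maternal RNA, at a mean of 126 to 254 TPM for its L and S copies in uninjected embryos at 5.5 hpf. A transcript that separated injected from uninjected libraries, hbg1.L, was at most 0.829 TPM in the uninjected libraries and at least 1840 TPM in the injected ones, so every library matched its label as injected or not, while which mRNA mix it had received was not checked by it. Ribosomal RNA took 4.04% to 37.4% of the TPM in frog 1 and 1.77% to 15.6% in frog 2. In frog 1 it went from 11.4% to 37.4% at 5.5 hpf down to 4.04% to 8.19% at 7.5 hpf, and the Control+IAA libraries at 5.5 hpf held 11.6% against 22.0% in Control-IAA and 17.4% in Treated+IAA. Its part in the results was not tested. The tables hold no read counts, and their depth is unknown.

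The 49 resistant genes comprised 30 protein-coding genes (61.2%), 8 lncRNAs, 7 snoRNAs and 4 snRNAs by the RefSeq annotation of the Xenopus_laevis_v10.1 assembly. Among the other zygotic genes 287 (56.6%) were protein-coding, 95 (18.7%) were snRNAs and 74 (14.6%) were snoRNAs, against 8.2% snRNAs among the resistant genes. Of the other zygotic genes 78 (15.4%), 74 of them snRNAs, held the same values as another zygotic gene in every library, and no resistant gene did, so the snRNA share counts repeated copies. With genes of the same values counted once, 29 of 439 other zygotic genes (6.6%) were snRNAs. Xenopus laevis carries an L and an S set of chromosomes from its allotetraploid origin. Of the resistant genes 27 lay on the L set and 22 on the S set, and of the other zygotic genes 297 and 209. The median level of the resistant genes in Wt-IAA at 7.5 hpf was 21.2 TPM in frog 1 and 20.2 TPM in frog 2, against 27.4 and 21.9 TPM for the other zygotic genes. The named members include the genes of the signalling ligands nodal5.L, nodal5.2.L and nodal6.L, the transcription factors klf17.1.S and foxi1.L, the core histones h2bc11.S and h2ac7.L, the small GTPases rasl11b.S and rasd1.S, and the stress-inducible gadd45g.L. The other named members were syn2.S, a synapsin, klhl24.S, a Kelch-family protein, a1cf.L, an RNA-binding cofactor of mRNA editing in mammals, and sbk1l.S.

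Several members lay next to each other. The genes nodal5.L (3L:140237716-140245013), nodal5.2.L (3L:140248648-140250864) and nodal6.L (3L:140262290-140264258) form 1 cluster on chromosome 3L, and LOC108711635, which starts at 140231421 beside them, fell just below the threshold. LOC121402107 (3S:11409900-11434970) spans LOC121402109 and LOC121402106 (3S:11416448-11422762). How reads were assigned by strand is not given in the sources used here, so reads of these overlapping genes may be shared. The nodal5 copies are near-identical relatives of each other, and the split of reads between them is likewise uncertain. LOC121399348 and LOC121399351 lay within 81299902 to 81553984 on 1S, and klf17.1.S (4S:71870324-71873328) lay within 1 Mb of the snRNA LOC121393474 (4S:71328730-71328844).

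At 7.5 hpf, where the members were chosen, klf17.1.S shows what the rule means. This gene, also named neptune, codes for a Krüppel-like transcription factor. Its 3 pools in frog 1 held 91.2, 96.1 and 87.3 TPM in Control+IAA and 96.8, 89.6 and 103 TPM in Treated+IAA. In frog 2 the values were 42.5, 50.0 and 48.4 TPM in Control+IAA and 42.1, 40.5 and 42.0 TPM in Treated+IAA. The groups overlapped in frog 1, and in frog 2 every treated pool was slightly lower, with a difference of -0.17 (SE 0.14).

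Over the 49 members the median of treated minus control at 7.5 hpf with auxin was 0.13 in frog 1 and 0.35 in frog 2, and without auxin 0.06 and 0.24. The other zygotic genes had medians of -0.24 and -0.37 with auxin and -0.46 and -0.46 without. Over all tested genes the medians were 0.06 and 0.03 with auxin and 0.08 and 0.16 without. The rule used the values of the members and the other zygotic genes, so nothing is read from the gaps. Members just inside the threshold were LOC503674, with its lowest difference at -0.195, syn2.S at -0.194 and the snoRNA LOC121396265 at -0.183. Just outside were LOC108711635 at -0.205, LOC108696874 at -0.216 and the lncRNA LOC121395162 at -0.218. These lowest differences lie closer together than the standard error of a typical member.

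The precision of the level at 7.5 hpf differed between members. For 23 of them the 95% limma interval of all 4 differences stayed above -0.5. They include klf17.1.S, rasl11b.S, foxi1.L, nodal5.L, LOC108711538, LOC121402106 and LOC121402126. For the other 26 at least 1 interval reached below -0.5, and all 11 snRNA and snoRNA members are among them. The median SE was 0.745 for the snRNA and snoRNA members, 0.205 for the other members and 0.128 for all tested genes. For those 26 genes a fall by 0.5 on the log2 scale lies within the error of at least 1 comparison. The rule chose the members by these same differences, so the intervals may sit too high and need not hold their 95% coverage. They describe the spread between pools and are no test of a fall, also for the 23 genes.

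The short RNAs make this plain. The snRNA LOC121396297 was listed at 0 in all 15 frog 1 libraries of 5.5 hpf and at 6.89, 12.6 and 16.4 TPM in Wt-IAA at 7.5 hpf, but at 784, 1018 and 1101 TPM in the same group of frog 2. In the frog 1 Control-IAA pools at 7.5 hpf it was 8.70, 0 and 15.8 TPM, and treated minus control without auxin was 1.47 (SE 0.769). In wild type embryos the most abundant member, the snRNA LOC121393474, varied less and lay between 1629 and 2092 TPM in the 6 Wt-IAA libraries at 7.5 hpf. Its treated minus control differences at that time still had an SE of 0.278 in frog 1 and 0.297 in frog 2. The frog 1 interval without auxin reached down to -0.55. At least 1 library was listed at 0 for 18 members in frog 1 and for 12 members in frog 2.

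The members and the other zygotic genes also differed in when they rose in uninjected embryos, which the rule did not set. The median protein-coding member had reached 78.0% of its log2 rise by 6.5 hpf in frog 1 and 81.6% in frog 2, against 47.4% and 52.3% for the 287 other protein-coding zygotic genes. In both frogs at once 27 of 30 protein-coding members (90.0%) were past the midpoint at 6.5 hpf, against 123 of 287 others (42.9%). The shares share their end points with the rule and are a description with no test. The 3 late protein-coding members were a1cf.L, syn2.S, which was late in frog 2 (42.3%), and XB5848002.L [provisional]. The 11 snRNA and snoRNA members had median shares of 18.0% and 44.8%, against 36.8% and 75.9% for the 169 others of these types.

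**Figure D1:**
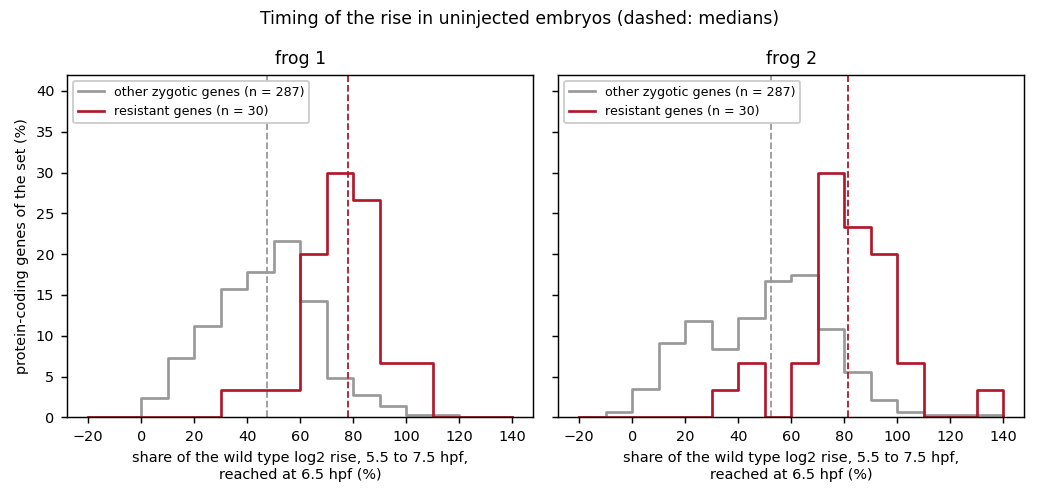
Share of the wild type log2 rise from 5.5 to 7.5 hpf that protein-coding zygotic genes had reached at 6.5 hpf, in bins of 10 percentage points, with values past the axis counted in the end bins; the y axis gives the percent of the 30 resistant or the 287 other zygotic genes, and dashed lines are the medians. The resistant genes centre near 78.0% in frog 1 and 81.6% in frog 2, the others near 47.4% and 52.3%.

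In TPM as deposited, a few members were no higher at 7.5 than at 6.5 hpf in uninjected embryos. The dexamethasone-induced Ras family GTPase rasd1.S stood at 14.4 ± 0.556 TPM (SD, n = 3) in frog 1 Wt-IAA at 6.5 hpf and at 12.9 ± 2.04 at 7.5 hpf. In frog 2 it was at 12.3 ± 2.41 TPM at 6.5 hpf and at 6.17 ± 0.990 at 7.5 hpf. nodal5.L, a ligand that induces mesendoderm, was at 6.80 ± 1.45 and 6.59 ± 1.76 TPM at 6.5 and 7.5 hpf in frog 1 and at 7.60 ± 0.801 and 6.83 ± 1.66 TPM in frog 2, so its level at 7.5 hpf lay within the spread of the level 1 hour before. In TPM as deposited, nodal5.L and rasd1.S were the only members at or above 100% of their rise at 6.5 hpf in both frogs. The library factors behind the median-ratio rescaling were lower in Wt-IAA at 7.5 than at 6.5 hpf in both frogs. Whether these members still rose between these times after rescaling was not tested, so no halt of their rise is read from these levels.

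The rise took place in treated embryos too, in siblings of the uninjected embryos that had chosen the members. Between 5.5 and 6.5 hpf in Control-IAA 42 members were called higher in frog 1 and 45 in frog 2 (limma, Benjamini-Hochberg adjusted p under 0.05 over all tested genes), 42 of them in both, where 55.3%, 6.07% and 4.49% of all tested genes were called higher. In Control+IAA 42, 46 and 41 members were called in frog 1, frog 2 and both, against 54.6%, 6.41% and 4.7% of all genes. In Treated-IAA 42, 44 and 42 were called against 69.8%, 5.12% and 3.93%, and in Treated+IAA 40, 42 and 39 against 71.8%, 5.19% and 3.9%. The median of all tested genes moved by 0.35 to 0.56 between these times in frog 1, whose ribosomal RNA share fell meanwhile, and by -0.32 to -0.21 in frog 2. After median-ratio rescaling 38 to 41 members were called higher in frog 1 and 42 to 46 in frog 2, against 7.68% to 17.6% and 7.33% to 13.7% of all genes. In frog 1 as deposited, 81.6% to 85.7% of the members were called.

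LOC108711538 (7L:54676672-54755990), the protein-coding member with the highest level, illustrates the size of the rise. Its pools in frog 2 went from 2.49, 4.2 and 6.14 TPM at 5.5 hpf to 77.0, 74.8 and 69.3 TPM at 6.5 hpf in Control-IAA. In Treated-IAA they went from 3.36, 3.23 and 3.38 TPM to 71.1, 68.4 and 89.4 TPM. All pools at 6.5 hpf were above all pools at 5.5 hpf, and the log2 rise was 3.88 (SE 0.191, adjusted p = 5.3e-18) in the control and 4.15 (SE 0.191, adjusted p = 2.14e-18) in the treated embryos by limma. At 6.5 hpf the treated and control pools of this frog overlapped. The rise of this member was likewise made likely by the rule.

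At 6.5 hpf, a time the rule did not use, most members had a negative difference of treated from control embryos. With auxin 46 of 49 members in frog 1 and 40 of 49 in frog 2 had a difference below 0, 37 of them in both frogs. The median difference was -0.42 in frog 1 and -0.27 in frog 2, where the median of all tested genes was 0.07 and 0.11. The other zygotic genes had medians of -0.48 and -0.57. Without auxin 38 and 37 members were below 0, with medians of -0.24 and -0.24 against 0.08 and 0.14 for all tested genes and -0.24 and -0.58 for the other zygotic genes. Being below 0 in most genes is a count and not a test, and the differences of most single members did not pass one.

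In the values as deposited the members that passed did so in frog 2, with no test of the difference between frogs. With auxin no member was called lower in frog 1 (16 at an unadjusted p under 0.05) and 3 were called lower in frog 2, against 0.101% and 0.952% of all tested genes. Without auxin none was called in frog 1 (10 at an unadjusted p under 0.05) and 5 in frog 2, against 0.0909% and 1.16%. The shares of all tested genes here and below are of adjusted calls. None is given at an unadjusted p, so nothing is read from the unadjusted counts. No member was called higher, against 0.00479% of all genes in frog 1 in either scheme and 0.37% with and 0.325% without auxin in frog 2 (limma, at most 1 member at an unadjusted p under 0.05 in each). Of the 507 other zygotic genes 15 and 156 were called lower with auxin and 19 and 180 without. No member was called lower in both frogs, against 0.046% of all genes with auxin and 0.0817% without. Of the 507 other zygotic genes 9 and 16 were, shares too small for the lack of calls among 49 members to show a difference. The rule also chose the members for treated not being lower at a later time in sibling pools, which makes fewer lower calls likely. Their median SE was 0.745 for snRNA and snoRNA members and 0.205 for the others, against 0.128 for all tested genes. The gaps to the other zygotic genes were not tested. After median-ratio rescaling 3 members in frog 1 and 6 in frog 2 were called lower with auxin, against 0.26% and 1.18% of all genes, and 0 and 6 without, against 0.154% and 1.46%.

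klf17.1.S changed most among the members called. At 6.5 hpf in frog 2 its pools held 26.3, 24.6 and 20.4 TPM in Control-IAA and 10.4, 8.12 and 9.32 TPM in Treated-IAA. With auxin the pools held 18.9, 22.0 and 25.2 TPM in controls and 10.1, 12.3 and 7.17 TPM in treated embryos. No treated pool reached a control pool in either scheme. The difference was -1.27 (SE 0.14, adjusted p = 1.89e-07) without auxin and -1.10 (SE 0.14, adjusted p = 7.03e-06) with auxin by limma. In frog 1 with auxin the pools were 43.7, 45.9 and 45.9 TPM in controls and 34.9, 27.4 and 31.4 TPM in treated embryos, also without overlap, and the difference of -0.52 (SE 0.162, adjusted p = 0.221) was not called. Without auxin in frog 1 the treated pools did not all lie below the control pools. The difference there was -0.51 (SE 0.162, limma adjusted p = 0.788). The wild type pools of frog 2 were 28.5, 21.1 and 27.8 TPM, near the controls. An hour later, as given above, the frog 2 difference with auxin was -0.17.

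rasl11b.S codes for a Ras-like GTPase whose zebrafish relative acts in mesendoderm formation. In frog 2 at 6.5 hpf its pools held 11.2, 11.1 and 11.3 TPM in Control-IAA and 5.65, 6.08 and 6.92 TPM in Treated-IAA. With auxin they held 10.6, 11.0 and 12.3 TPM against 6.44, 7.47 and 6.06 TPM. The groups did not overlap, with differences of -0.76 (SE 0.134, adjusted p = 0.000449) and -0.68 (SE 0.134, adjusted p = 0.00274) by limma. At 7.5 hpf the treated and control means were 18.4 ± 3.65 and 19.6 ± 2.45 TPM without auxin (SD, n = 3). In frog 1 the difference at 6.5 hpf was -0.35 with auxin and -0.23 without, and neither was called.

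LOC503674 (8L:108584032-108592251), the member nearest to the threshold, held 17.4, 19.3 and 14.2 TPM in the frog 2 Control-IAA pools and 11.3, 10.1 and 10.5 TPM in Treated-IAA. In frog 1 it held 16.8, 14.9 and 15.1 TPM in Control-IAA and 11.2, 12.5 and 9.44 TPM in Treated-IAA. It was the only member with all treated pools below all control pools in both frogs without auxin. The frog 2 difference was -0.61 (SE 0.118, adjusted p = 0.00147) and the frog 1 difference -0.46 (SE 0.188, adjusted p = 0.895) by limma. With auxin the frog 2 difference was -0.64 (SE 0.118, adjusted p = 0.00135). Both frog 2 calls were lost when the libraries of the contrast were fitted alone (limma adjusted p = 0.0684 and 0.0548).

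h2ac7.L, a histone H2A gene, and LOC121394829 were called without auxin in frog 2 and not with it. h2ac7.L held 17.2, 12.8 and 14.2 TPM in Control-IAA and 6.70, 7.23 and 7.69 TPM in Treated-IAA, a difference of -0.93 (SE 0.221, limma adjusted p = 0.0175). This call was lost without Treated-IAA replicate 2.1 or 2.2 or Control-IAA replicate 2.1, with limma adjusted p between 0.0574 and 0.133, and with a pseudocount of 0.1. LOC121394829 held 16.4, 18.5 and 11.9 TPM against 10.1, 8.27 and 9.84 TPM, a difference of -0.66 (SE 0.104, limma adjusted p = 7.99e-05) that was not called in a fit of these libraries alone (adjusted p = 0.124). With auxin the frog 2 differences of these genes were -0.63 and -0.27. The difference between the effects with and without auxin at 6.5 hpf was called for no member and no gene in either frog (limma, 3 members lower in frog 1 and 1 higher in frog 2 at an unadjusted p under 0.05), against 0% of all genes, so no difference between the schemes was detected.

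**Figure D2:**
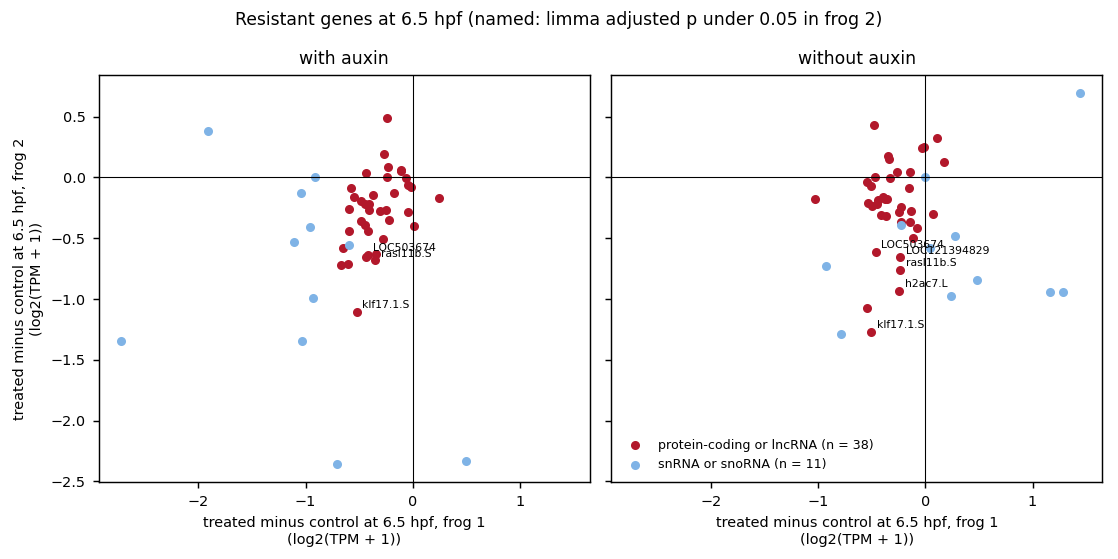
Treated minus control on the log2(TPM + 1) scale at 6.5 hpf in frog 1 (x axis) and frog 2 (y axis), with auxin (left) and without (right), for the 38 protein-coding or lncRNA members and the 11 snRNA or snoRNA members. Most points lie below 0 in both frogs, and the named genes are the 3 and the 5 members called lower in frog 2.

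Pools were also counted directly. With auxin at 6.5 hpf all 3 treated pools lay below all 3 control pools for 20 members in frog 1 and 20 in frog 2, against 3.97% and 3.59% of all tested genes. For 8 members this held in both frogs, against 1.22% of all tested genes. They were klf17.1.S, rasl11b.S, h2ac7.L, LOC121402126, LOC121400560, LOC121394829, LOC121399351 and the snoRNA LOC121396265. Without auxin it held for 6 members in frog 1 (1.56% of all genes), 11 in frog 2 (2.95%) and 1 in both (0.531%). The reverse, all treated pools above all control pools, held with auxin for 0 members in frog 1 and 1 in frog 2, against 8.07% and 18.9% of all tested genes, and without auxin for 0 and 2, against 2.88% and 31.1%. Counts of this kind were not made for the other zygotic genes, whose median differences at 6.5 hpf were also negative. A gap to all tested genes is thus not shown to be particular to the members.

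LOC121402126 (3S:22827149-22853992) was the member of these with the second highest level among the protein-coding ones. In frog 1 it held 70.2, 70.0 and 68.6 TPM in Control+IAA and 55.6, 47.1 and 50.0 TPM in Treated+IAA at 6.5 hpf. In frog 2 it held 41.2, 42.4 and 47.0 TPM against 29.2, 37.8 and 32.0 TPM. At 7.5 hpf the order was reversed in frog 2, where the control pools were at 52.5, 47.8 and 50.7 TPM and the treated pools at 74.8, 73.7 and 66.8 TPM, and the groups overlapped in frog 1. The frog 2 gap at 7.5 hpf was part of the rule.

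From 6.5 to 7.5 hpf the median member rose by 1.11 in Treated+IAA and 0.49 in Control+IAA in frog 1, and by 1.18 and 0.57 in frog 2. Without auxin the rises were 1.35 in treated and 1.00 in control embryos in frog 1, and 1.02 and 0.41 in frog 2. Since 7.5 hpf chose the members, this is a description. For the other zygotic genes the medians with auxin were 1.85 in treated and 1.44 in control embryos in frog 1, and 1.46 and 1.37 in frog 2. Without auxin they were 1.66 in treated and 1.83 in control embryos in frog 1, and 1.16 and 1.09 in frog 2.

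**Figure D3:**
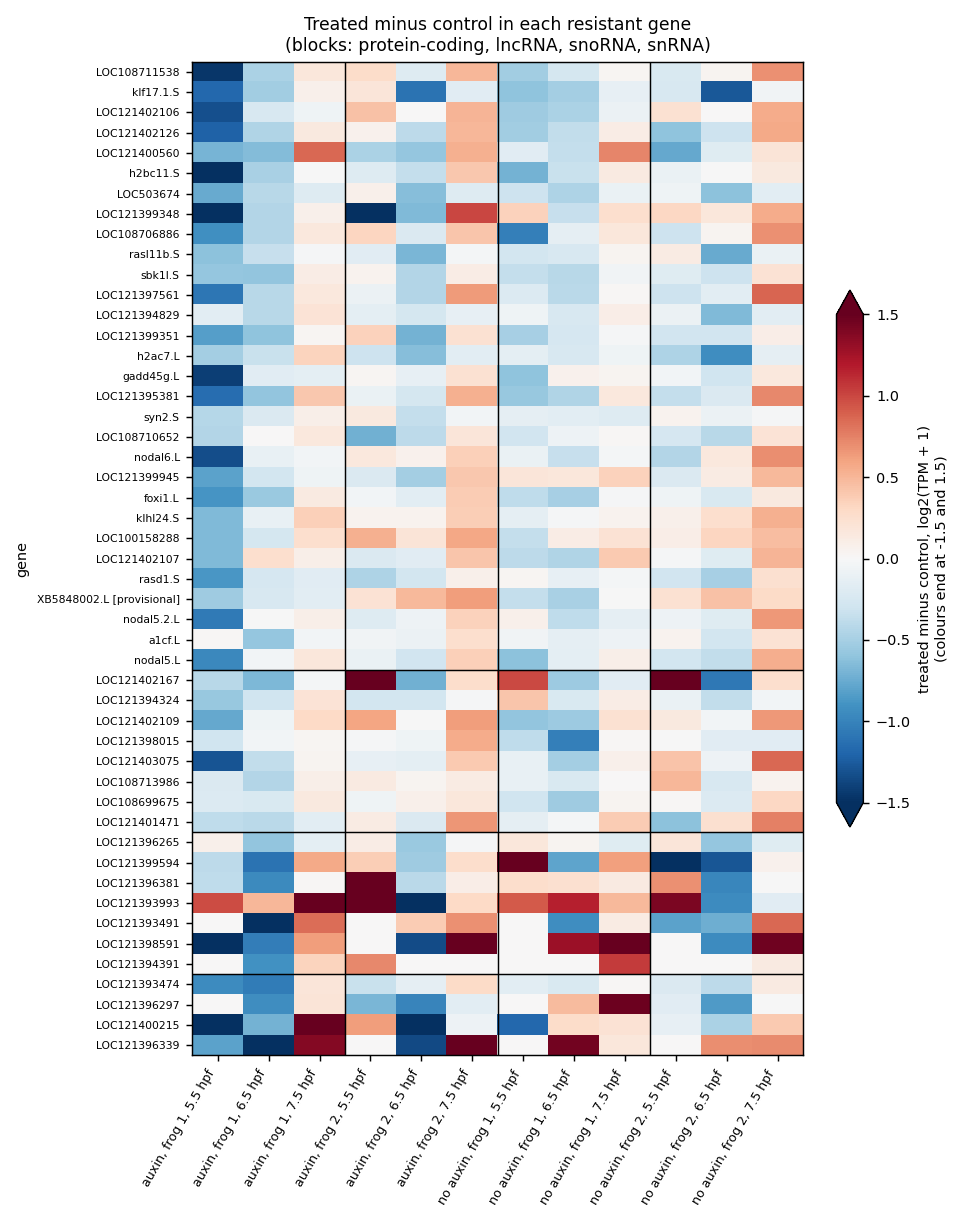
Treated minus control on the log2(TPM + 1) scale (colour, with the scale ending at -1.5 and 1.5) for the 49 resistant genes (rows, by gene type and then by level) in each scheme, frog and time (columns). Blue, lower in treated, prevails at 6.5 hpf and in frog 1 with auxin at 5.5 hpf, and red or white at 7.5 hpf, where the rule required values above -0.2.

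At 5.5 hpf calls were made in 1 frog only, with no test of the difference between frogs. In frog 1 with auxin 13 members were called lower in treated embryos (limma, 33 at an unadjusted p under 0.05), against 0.383% of all tested genes called. No share of all genes is given at an unadjusted p, so the 33 cannot be judged against one. The median difference was -0.70 against -0.14 for all genes. In frog 2 none was called, against 0% of all genes (limma, 2 members at an unadjusted p under 0.05), and the median was 0.00 against 0.06. None was called in both, against 0% of all genes. The 13 were LOC121402126, LOC108711538, klf17.1.S, LOC121402106, gadd45g.L, h2bc11.S, nodal6.L, nodal5.L, foxi1.L, rasd1.S, LOC121403075, LOC121395381 and LOC121397561, with differences from -1.52 for h2bc11.S to -0.87 for rasd1.S. Without auxin no member was called lower in either frog, against 0.00479% and 0.00986% of all genes (limma, 14 and 5 members at an unadjusted p under 0.05), with medians of -0.16 and -0.08. All 3 treated pools lay below all 3 control pools for 30 members in frog 1 with auxin, against 17.1% of all tested genes, for 2 members in frog 2, against 1.58%, and for none in both, against 0.281%. Without auxin it was 8 members in frog 1, against 8.2%, and 7 in frog 2, against 2.53%. The frog 1 count of 13 fell to 8 when Treated+IAA replicate 1.1 or 1.2 or Control+IAA replicate 1.3 was left out, and to 8 in a fit of these libraries alone.

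LOC108711538 shows which group stood apart. At 5.5 hpf its frog 1 pools held 25.9, 17.5 and 24.9 TPM in Control+IAA, 7.77, 6.61 and 8.37 TPM in Treated+IAA, 4.17, 9.70 and 8.88 TPM in Control-IAA and 5.43, 4.93 and 5.64 TPM in Wt-IAA. The control pools with auxin were above all others, and the treated pools lay among the remaining groups. LOC121402126 had the same order, with 14.7, 11.0 and 12.6 TPM in Control+IAA, 5.14, 4.01 and 5.62 TPM in Treated+IAA and 4.18, 5.23 and 6.90 TPM in Control-IAA.

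Compared directly, 32 of 49 members were higher in frog 1 Control+IAA than in Control-IAA at 5.5 hpf (limma), where 38.7% of all tested genes were called higher. The median member was 0.84 higher and the median gene 0.29. After median-ratio rescaling 9 members were called, against 0.419% of all genes. In frog 2 none was called, against 0% of all genes (limma, 2 members at an unadjusted p under 0.05), and the median was -0.01. This comparison shares the Control+IAA pools with the one above, and it was added after the data had been seen. The lower ribosomal RNA share of these pools moves with it, and its part in the result was not tested. klf17.1.S and LOC121402126 were the members whose treated pools all lay below all control pools at 5.5 hpf in both frogs without auxin, where 0.123% of all genes did.

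At 6.5 hpf the auxin comparison in controls gave 14 members higher in frog 1 (limma, adjusted p from 0.00989 to 0.0499), against 21.9% of all tested genes. After median-ratio rescaling no member was left, and 0% of all tested genes were called in either direction, so the loss was not particular to the members. None was left without Control-IAA replicate 1.3, and 1 was left without Control+IAA replicate 1.1 or 1.2. In frog 2 none was called, against 0% of all genes (limma, 2 members at an unadjusted p under 0.05, both lower).

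Some members differed between injected and uninjected embryos. At 6.5 hpf 13 members were higher in Control-IAA than in Wt-IAA embryos in frog 1 and 4 in frog 2 (limma), against 1.66% and 0.616% of all tested genes, and 4 were higher in both, against 0.521%. In frog 1 2 members were lower, h2ac7.L and rasd1.S, against 16.8% of all genes, and in frog 2 none was, against 0.0542% (limma, none at an unadjusted p under 0.05). After median-ratio rescaling the frog 1 split was 14 higher and 0 lower, against 1.59% and 0.501% of all tested genes. The frog 1 total of 15 fell to 9, 7 and 8 without Control-IAA replicate 1.3, Wt-IAA replicate 1.2 and Wt-IAA replicate 1.3. Control minus wild type had a median over the members of 0.30 and 0.37, over all tested genes of -0.25 and 0.02, and over the other zygotic genes of -0.12 and 0.07. At 7.5 hpf, where the controls entered the rule, it was 0.26 and 0.04 over the members and -0.15 and -0.31 over the other zygotic genes. There 25 of 49 members were above wild type in both frogs, against 79 of 507 others. These values at 7.5 hpf are a description with no test.

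The 4 members higher in both frogs were XB5848002.L [provisional], foxi1.L, LOC121402106 and LOC100158288, which RefSeq also lists as epid21. XB5848002.L [provisional] (1L:160976301-160980673) held 2.36, 1.89 and 2.42 TPM in frog 1 Wt-IAA and 13.8, 14.9 and 14.9 TPM in Control-IAA. In frog 2 it held 0.956, 1.40 and 1.33 TPM against 8.34, 7.63 and 7.27 TPM. The groups lay far apart, with differences of 2.27 (SE 0.167, limma adjusted p = 6.6e-12) and 1.98 (SE 0.168, limma adjusted p = 5.71e-10).

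foxi1.L (3L:39080723-39082941) codes for a forkhead transcription factor. Its frog 2 pools held 6.29, 5.38 and 5.09 TPM in Wt-IAA, 25.5, 20.8 and 17.9 TPM in Control-IAA and 17.5, 16.4 and 19.9 TPM in Treated-IAA at 6.5 hpf. Both injected groups were above the uninjected one and overlapped with each other. The difference of control from wild type was 1.76 (SE 0.171, limma adjusted p = 1.14e-08) in frog 2 and 0.79 (SE 0.176, limma adjusted p = 0.004) in frog 1, where it was lost without Wt-IAA replicate 1.2 (adjusted p = 0.0707). At 7.5 hpf the means were 6.19 ± 0.404 TPM in Wt-IAA, 41.5 ± 12.7 in Control-IAA and 44.6 ± 2.82 in Treated-IAA in frog 2 (SD, n = 3), and 19.1 ± 0.728, 52.4 ± 8.73 and 51.4 ± 3.52 TPM in frog 1. Its S copy foxi1.S was at 5.24 ± 0.800 TPM in frog 1 Wt-IAA at 7.5 hpf and 1.12 ± 0.434 TPM in frog 2, so it met the level the rule asked for in frog 1 and not in frog 2.

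LOC121402106 was 1.3 higher in frog 1 (SE 0.2, limma adjusted p = 2.72e-05) and 0.81 higher in frog 2 (SE 0.174, limma adjusted p = 0.0116), and LOC100158288 was 0.91 (SE 0.173, limma adjusted p = 0.000753) and 0.72 higher (SE 0.159, limma adjusted p = 0.015). The frog 2 calls of LOC121402106 were lost without Control-IAA replicate 2.2, Wt-IAA replicate 2.1 or Wt-IAA replicate 2.3, with limma adjusted p up to 0.157. Those of LOC100158288 were lost without Control-IAA replicate 2.1 or 2.3 or Wt-IAA replicate 2.2, with limma adjusted p up to 0.219.

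**Figure D4:**
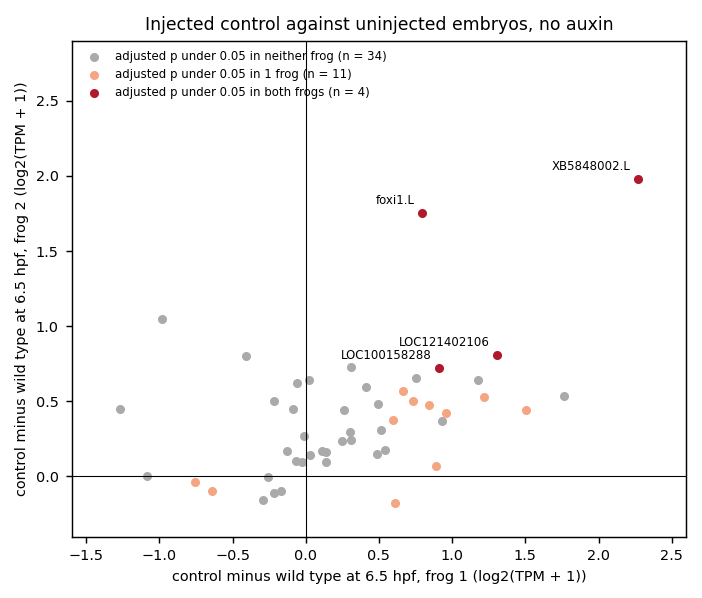
Control-IAA minus Wt-IAA on the log2(TPM + 1) scale at 6.5 hpf in frog 1 (x axis) and frog 2 (y axis) for the 49 resistant genes, coloured by the number of frogs in which limma called them. The 4 genes called in both frogs are named, with XB5848002.L at 2.27 and 1.98 and foxi1.L at 0.79 and 1.76.

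The pathway lists hold few zygotic copies each, and their counts of resistant genes were not tested against the 49 of 556 over all zygotic genes. The list of nodal, BMP and TGF-beta genes held 49 gene copies, of which 15 were zygotic and 3 resistant. Nodal ligands induce mesoderm and endoderm in a graded way, and nodal5 and nodal6 start first. nodal6.L held 28.3, 32.3 and 26.3 TPM in frog 1 Control-IAA at 7.5 hpf and 30.5, 33.6 and 22.1 TPM in Treated-IAA. In frog 2 it held 15.5, 18.3 and 13.1 TPM against 19.5, 29.0 and 30.4 TPM. The groups overlapped in frog 1 and treated pools were all higher in frog 2. At 6.5 hpf the 3 nodal members were not called in any treated against control fit. For nodal6.L the differences with auxin were -0.11 (SE 0.261) and 0.06 (SE 0.158).

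Other nodal ligands on the same chromosome were zygotic and fell outside the rule. The genes nodal.L and nodal3.2.L were also zygotic and not resistant, and their values are not given here. nodal1.L (3L:141534576-141537107) had differences at 7.5 hpf of -0.58 and -0.47 in frog 1, with and without auxin, and -0.29 and -0.07 in frog 2. nodal2.L had -0.69 and -0.38 in frog 1 and -0.25 and -0.39 in frog 2. nodal3.1.L had -0.29 and 0.03 in frog 1 and -0.68 and -0.67 in frog 2. Over the whole list at 6.5 hpf, 0 of 41 tested copies in frog 1 and 11 of 40 in frog 2 were called lower with auxin, and 3 of 41 and 12 of 40 without, with none called higher (limma). Of all tested genes 0.101% and 0.952% were called lower with auxin and 0.0909% and 1.16% without. The other zygotic genes, counted above, were called lower more often than all tested genes. The list holds zygotic genes, so its gap to all tested genes is not shown to be particular to the pathway.

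Ectodermal transcription factors gave 1 resistant gene, foxi1.L, among 26 zygotic copies. At 6.5 hpf 3 of 60 tested copies of that list in frog 1 and 16 of 53 in frog 2 were called lower with auxin, and 2 of 60 and 19 of 53 without, against the same shares of all tested genes. Here too the list is rich in zygotic genes, and its gap to all tested genes is not shown to be particular to it. Wnt and organizer genes gave 0 among 20 zygotic copies, mesendoderm transcription factors 0 among 18, FGF pathway genes 0 among 8, Notch pathway and hes genes 0 among 9, pluripotency factors 0 among 6 and cell cycle genes 0 among 4. Of the stress and immediate early genes 5 copies were zygotic and gadd45g.L was resistant. gadd45g.L held 14.7, 13.9 and 14.5 TPM in frog 2 Control-IAA at 7.5 hpf and 14.4, 17.3 and 17.1 TPM in Treated-IAA, which overlap. Of the early zygotic markers 6 copies were zygotic and nodal6.L was resistant, and of the adhesion and cytoskeleton list 5 were and rasl11b.S was. No translation gene was zygotic.

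Some homeologous copies fell on different sides of the rule. Among the partners found under the same name in the tables, none was itself a member, where 49 of all 556 zygotic genes were. With so few zygotic partners nothing is read from this. For 4 members the partner copy was zygotic and not resistant, and in 3 of these pairs the partner missed the rule in 1 frog only. sbk1l.L had differences without auxin of 0.18 in frog 1 and -0.44 in frog 2, rasl11b.L of -0.15 and 0.22 with -0.23 in frog 1 with auxin, and gadd45g.S of -0.04 and 0.34 with -0.30 in frog 1 with auxin. rasd1.L was lower in both frogs, by -0.65 and -0.61 with auxin and -0.78 and -0.59 without, while rasd1.S stayed above -0.2. For rasd1.S the levels at 7.5 hpf in frog 1 were 10.5 ± 2.42 TPM in Control-IAA and 10.2 ± 1.64 TPM in Treated-IAA (SD, n = 3).

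**Figure D5:**
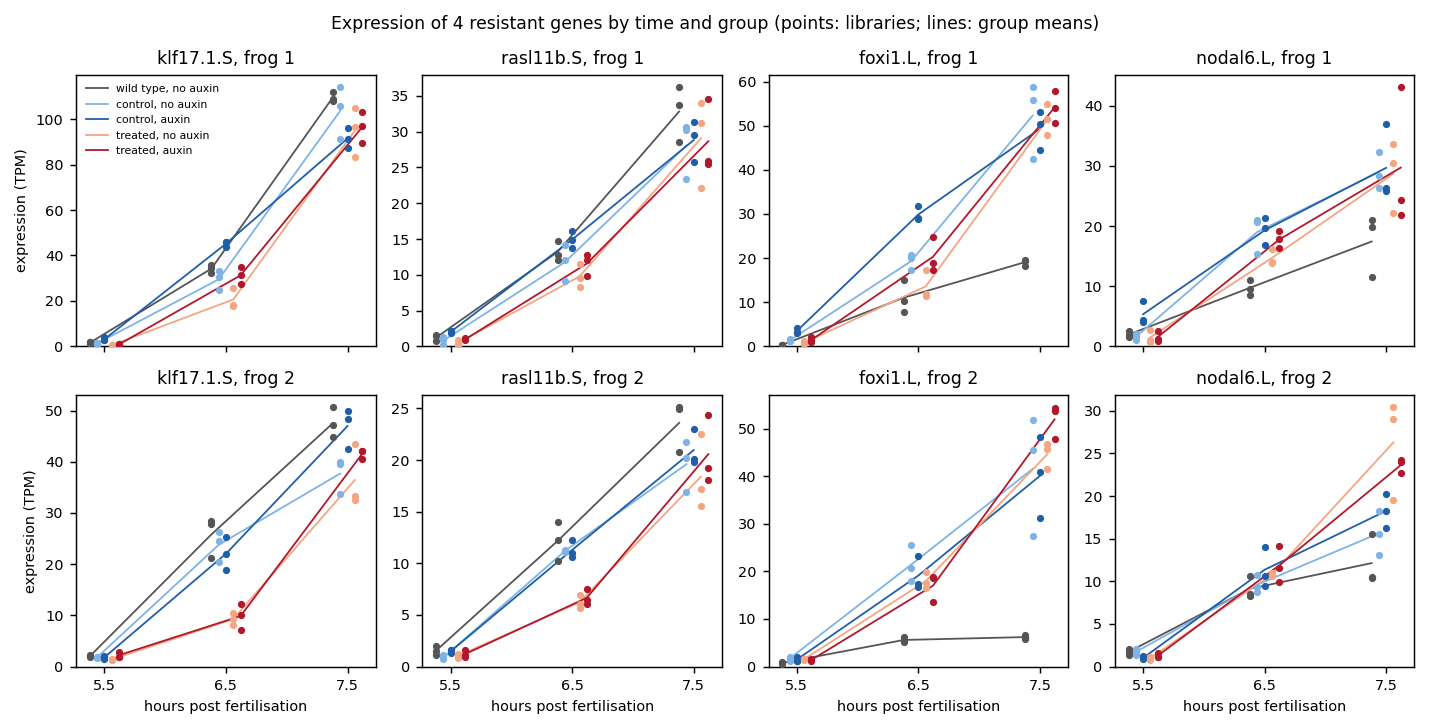
Expression (TPM) of klf17.1.S, rasl11b.S, foxi1.L and nodal6.L at 5.5, 6.5 and 7.5 hpf in frog 1 (top) and frog 2 (bottom), with each pool as a point and group means as lines. At 6.5 hpf in frog 2 the treated pools of klf17.1.S (7.17 to 12.3 TPM) and rasl11b.S (5.65 to 7.47 TPM) lie below the control pools, and foxi1.L in uninjected embryos stays near 6.19 TPM at 7.5 hpf in frog 2.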

How the data were processed

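TPM values were deposited by the authors, 1 table per frog, from transcript abundances that the paper's methods say were estimated with kallisto 0.48 against Xenbase v10.1 transcripts and summed to genes with tximport. Fold changes and tests of the authors were not used here. Entries with the same symbol were summed, and 806 unnamed entries of the frog 2 table, holding 0.0744 percent of TPM, were left out. The tables carry no counts, so no count model was run.

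Each frog was fitted alone with limma 3.58.1 in R 4.3.3 on log2(TPM + 1), since the tables were made separately, with 15 group means, an empirical Bayes trend and genes of at least 1 TPM in at least 3 libraries. All 49 members passed this filter in both frogs. P-values were two-sided and Benjamini-Hochberg adjusted over all tested genes of a contrast, at 0.05. Fold changes on this scale understate those of low genes. The fit was tested on simulated data.

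Named genes were the members on the gene lists, the 10 protein-coding members and 3 of each other type with the highest wild type level, those nearest the threshold, the 5 protein-coding members with the highest lowest difference, and those called in both frogs on injection. No member was called alike in both frogs between treated and control embryos. Members outside these sets, nodal1.L, nodal2.L, nodal3.1.L and the partner copies were named after their values were seen. Symbols were matched to RefSeq for biotype and position. The members and lists were chosen with earlier results of these data known. The comparison of auxin in controls at 5.5 hpf and that between schemes at 6.5 hpf were added after seeing the data. Alternatives were another pseudocount, filter and scaling, a fit of the contrast alone, a replicate block, and leaving out each library.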

Additional observations from a re-analysis of the deposited data

Results flagged for a closer look

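LOC121400560, a protein-coding gene of 324 bases on 1L (61240249 to 61240572), had all treated pools below all control pools at 6.5 hpf and all above at 7.5 hpf with auxin, in both frogs. Treated minus control was -0.65 and then 0.86 in frog 1 and -0.58 and then 0.53 in frog 2 on the log2(TPM + 1) scale. In frog 1 the Control+IAA pools went from 46.0, 57.9 and 57.0 TPM to 30.8, 38.3 and 23.4 TPM while the Treated+IAA pools went from 42.2, 25.8 and 34.5 TPM to 54.6, 47.8 and 67.1 TPM. The difference between the times was not tested, since the members were chosen at 7.5 hpf. With auxin 2 members in frog 1 and 6 in frog 2 had such a turn, and without auxin 0 and 2, where 0.67% and 0.715% of all tested genes had one with auxin and 0.115% and 0.158% without. The side at 7.5 hpf comes from values that the rule used, so nothing is read from these counts.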

How the results depend on the processing

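The number of resistant genes depends on the thresholds. It was 102 for a rise of at least 1, with all 49 kept, 107 for differences above -0.3, 41 for a rise of at least 2, 34 for differences above -0.1, 35 at 10 TPM, 54 with a pseudocount of 0.1 and 35 after median-ratio rescaling, of which 32 were shared with the 49. Leaving out 1 library gave 46 to 91, the highest without Wt-IAA replicate 1.1 at 5.5 hpf, and 46 to 61 otherwise.

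Member calls that moved by more than 1.5 times were these. At 6.5 hpf with auxin, rescaling gave 3 lower calls in frog 1 and 6 lower calls in frog 2, and without auxin the fit of the contrast alone gave 1 in frog 1. At 5.5 hpf with auxin that fit gave 8 in frog 1, and without auxin a pseudocount of 0.1 gave 3 in frog 1 and 1 in frog 2. For injection that fit gave 2 in frog 2. For auxin in frog 1 controls at 6.5 hpf the counts were 3 with a pseudocount of 0.1, 8 with no filter, 0 after rescaling and 3 in the fit of the contrast alone. In frog 2 rescaling gave 1 member lower and 0 higher, against 0.304% and 0.48% of all tested genes. The causes were not tested.

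Leaving out 1 library gave, for treated against control with auxin, 0 to 1 members in frog 1 and 3 to 3 in frog 2 at 6.5 hpf and 8 to 14 and 0 to 2 at 5.5 hpf. Without auxin it gave 0 to 0 and 4 to 7 at 6.5 hpf and 0 to 2 and 0 to 1 at 5.5 hpf. For injection it gave 7 to 14 (9 without Control-IAA replicate 1.3) and 3 to 4, and for auxin in controls at 6.5 hpf 0 to 17 and 0 to 1. Of the named gene calls 300 values kept their side of the threshold and 48 kept their direction only, and none changed sign.

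Pool numbers did not pair the libraries, with 0 of 3 same-numbered correlations over 0.1 in each contrast. With pool number as a replicate block the members called lower at 6.5 hpf were 0 and 3 with auxin and 0 and 5 without, and it changed no count by over 1.5 times.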
